A study of Mus musculus with 7 samples.

Results

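The hedgehog pathway carries a secreted signal that patterns the embryonic nervous system. Hedgehog ligand binds the receptor Ptch1, helped by the co-receptors Gas1, Boc and Cdon, and so releases Smo, a membrane protein that Ptch1 otherwise keeps inactive. Active Smo frees the GLI transcription factors from Sufu, so that Gli2 mainly activates targets, Gli1 is both an activator and a target, and Gli3 serves largely as a repressor. In the dorsal telencephalon, the roof of the forebrain that forms the cortex, Gli3 is known for holding back ventral, hedgehog-driven fates. Open chromatin at these 10 genes is described here, Gli1, Gli2, Gli3, Ptch1, Smo, Sufu, Gas1, Boc, Cdon and Hhip, the last of which encodes a ligand-binding inhibitor. They were taken as a named list of pathway genes out of 21887 protein-coding genes on chromosomes 1 to 19, X and Y. A locus is taken as the span of a gene plus 50 kb to each side.

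Accessibility had been profiled by ATAC-seq, in which a transposase cuts and tags open DNA, in CD15+ neural progenitors. They had been sorted from dorsal telencephalon of embryos of the CD-1 mouse strain. CD15 is a surface carbohydrate of neural stem and progenitor cells. Titles give the age as E14.5. The comparison is between 3 wild-type libraries and 4 libraries with the genotype L3mbtl3 -/-, called knockout below; the protein that L3mbtl3 encodes has malignant brain tumour domains, and the study ties it to Polycomb repressive complex 1. The labels describe neither the deleted part of the allele nor whether each library came from its own embryo, so the tests measure the spread between libraries only.

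Each library has its own list of called peaks, and the lists held 6458 to 11394 peaks in wild-type and 3366 to 17362 in knockout libraries. Knockout library 4 had the longest list and knockout library 3 the shortest. The number of reads behind the lists is unknown, and more reads, a better signal over background and more open chromatin all lengthen a list. At the L3mbtl3 locus wild-type library 1 and knockout library 4 each had 1 peak and the other 5 libraries had none, which does not test the allele. Of 12 marker genes of dorsal progenitors 11 had a peak in their locus in some library, among them Pax6, Emx1 and Vim, whereas Hes1 had none; their summed peaks ran from 8 to 16 in wild-type and from 7 to 30 in knockout libraries. Of 7 markers of intermediate progenitors and neurons 6 had a peak, with sums of 2 to 8 in wild-type and 3 to 9 in knockout libraries. Among them Tbr1 had a peak in all 7 libraries, whereas Eomes had none in any. Of 6 ventral telencephalic markers 4 had a peak, with sums of 0 to 2 and 0 to 3, and Gsx2 and Nkx2-1 had none. Markers of microglia and blood had a peak for 4 of 5 genes (sums of 2 in each wild-type and 0 to 5 in knockout libraries), those of endothelium for 4 of 4 (0 to 1 and 0 to 5) and those of meninges for 1 of 4, Dcn (1 and 1 to 2). Csf1r, Col1a1, Foxc1 and Lum had none. Over all protein-coding genes 69.2% had a peak in their locus in some library as well. The part of other cells in the results was not tested.

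The stretches before 3 gene starts are shown, those of Smo and Gas1, which had a peak there, and that of Gli3, which had none. RefSeq (GRCm38.p6) gives a start window, 250 bases before to 50 after the start, for 8 of the 10 genes and none here for Gli1 and Boc. Peaks at the starts of Gli1 and Boc could therefore not be counted. Peaks touched the windows of Smo, in wild-type library 3 and knockout library 4, and of Gas1, in knockout library 4. No library had a peak in the windows of Gli2, Gli3, Ptch1, Sufu, Cdon or Hhip. The starts used for Cdon (35452076) and Ptch1 (63565735) lie inside the gene spans given below, not at their outer ends. Those windows therefore do not cover the outer end of either gene. Distances inside a gene count below from the start used for its window. The 250 bases before the start follow, 5′ to 3′ along the gene; capitals in Smo and Gas1 mark bases inside a peak of any library, and capitals in Gli3 mark a match to the E-box CAGATG read on the other strand.
Smo, plus strand, chr6:29735247-29735496: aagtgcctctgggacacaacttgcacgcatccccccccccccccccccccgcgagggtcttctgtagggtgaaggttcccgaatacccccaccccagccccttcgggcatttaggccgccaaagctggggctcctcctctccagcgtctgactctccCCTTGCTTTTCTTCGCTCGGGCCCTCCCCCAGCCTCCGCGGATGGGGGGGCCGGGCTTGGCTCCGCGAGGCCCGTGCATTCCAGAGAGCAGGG
Gas1, minus strand, chr13:60177536-60177785: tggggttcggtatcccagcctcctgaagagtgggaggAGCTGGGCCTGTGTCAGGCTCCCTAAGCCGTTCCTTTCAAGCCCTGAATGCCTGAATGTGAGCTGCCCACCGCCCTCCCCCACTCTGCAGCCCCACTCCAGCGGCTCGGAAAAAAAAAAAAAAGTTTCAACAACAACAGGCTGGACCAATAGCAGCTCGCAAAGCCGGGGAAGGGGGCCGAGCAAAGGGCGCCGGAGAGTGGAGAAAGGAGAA
Gli3, plus strand, chr13:15463473-15463722: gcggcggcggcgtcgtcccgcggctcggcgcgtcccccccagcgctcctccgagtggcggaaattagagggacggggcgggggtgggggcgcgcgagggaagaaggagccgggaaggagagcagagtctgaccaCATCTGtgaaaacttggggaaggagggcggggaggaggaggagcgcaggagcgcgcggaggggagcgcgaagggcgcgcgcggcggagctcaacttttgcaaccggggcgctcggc

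The Smo peaks spanned 129 bp in knockout library 4 and 89 bp in wild-type library 3 and reached across the start, so that 93 of the 250 bases shown were covered. At Gas1 the single peak was 311 bp long and covered 213 of the 250 bases. Of the 8 start windows, knockout library 4 thus had a peak in 2, wild-type library 3 in 1 and the other 5 libraries in 0. Among all 21263 protein-coding start windows of this length, 3.07% to 15% held a peak, depending on the library. The nearest peak to the start of Gli3 lay 497 bp before it, in wild-type library 1 only. At Sufu the nearest lay 1601 bp from the start, at Hhip 1784 bp, at Ptch1 10803 bp, at Gli2 19438 bp and at Cdon 40002 bp. The Cdon distance counts from its internal start. From the lower end of the Cdon span a region lay 9.45 kb away.

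The window of Gli3 was rich in CpG, with 39 CpG dinucleotides and 71% G and C against a median of 13 and 56.3% over all windows. Ptch1 had 47 CpG, Hhip 30, Gli2 28, Smo and Gas1 17 each, Sufu 12 and Cdon 3. Windows with a peak and windows without one therefore overlapped in CpG number. Neither the GLI core GACCACCCA nor the shorter CCACCCA it contains was found on either strand in the 8 windows; all windows held them in 0.179% and 9.46% of cases. The E-box CAGCTG was in none of the 8 (15.6% of all windows) and the E-box CAGATG only in Gli3 (14.6%).

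Across the 10 loci the lists held 107 peaks, and Gli3 alone accounted for 40 of them (37.4%). Wild-type libraries 1, 2 and 3 had 12, 16 and 12 peaks over the 10 loci, and knockout libraries 1 to 4 had 11, 11, 6 and 39. Knockout library 4 stood above all others and knockout library 3 below them, in the order of their list lengths. At 5 of the 10 loci knockout library 4 stood above the other knockout libraries by Dixon's criterion for a value apart from its group, as it did at 37.9% of tested loci. Group means were 13.3 ± 2.31 and 16.75 ± 15.02 (SD, n = 3 and 4), and without knockout library 4 the knockout mean was 9.33 ± 2.89 (n = 3). Per 10000 listed peaks the sums were 16.2 ± 2.27 and 16.7 ± 4.70 (SD, n = 3 and 4). Sums over the list carry no test, since the genes were chosen with earlier results of these data known.

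**Figure D1:**
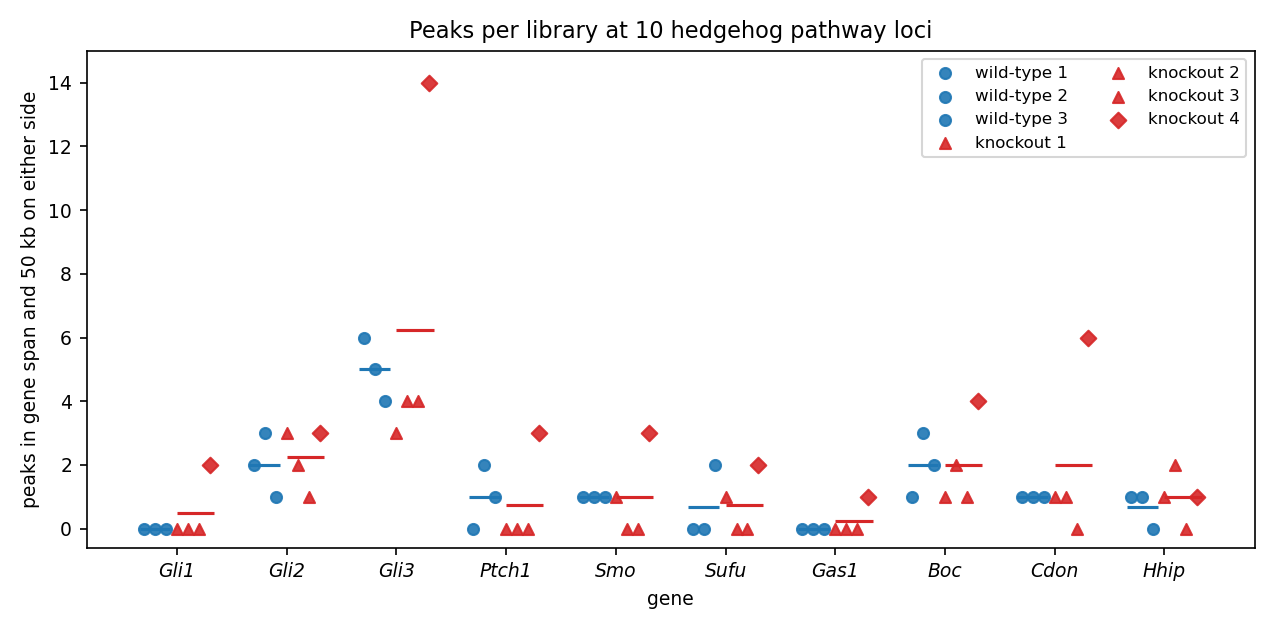
Number of peaks per locus (y axis) for each of the 10 genes (x axis). Points are libraries (circles wild-type, triangles and diamond knockout, the diamond being knockout library 4) and lines are group means. Gli3 is highest in every library, level with Gli2 in knockout library 1, and knockout library 4 is the single highest library at 7 of the 10 genes.

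Between the genotypes, none of the 10 loci separated. At every locus the peak numbers of the groups overlapped, as they did at nearly all tested loci. Every knockout library exceeded every wild-type library at 0.132% of 15153 tested loci and the reverse held at 0.211%. In the exact permutation test of the difference in means, 0 of 10 members had an unadjusted p under 0.05, beside 0.33% of tested loci. With Benjamini-Hochberg adjustment 0% of tested loci passed, and every adjusted p was 1. Means were higher in knockout at 7 members (58.6% of tested loci), higher in wild-type at 1 (37.8%) and equal at 2. Without knockout library 4 the count turned to 1 higher in knockout (21.9% of loci tested then), 6 higher in wild-type (58.2%) and 3 equal. Per 10000 listed peaks, 6 members were higher in knockout (53.3% of tested loci) and 4 in wild-type (46.7%), the latter being Ptch1, Smo, Sufu and Boc. The smallest p the design allows is 0.0286, so a locus could pass the adjustment only if most tested loci reached that p. The lack of adjusted calls was thus all but fixed in advance and says nothing about these loci.

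Gli3 (chromosome 13, 15463723 to 15730026, plus strand, 266.3 kb) had the most peaks of the 10 loci in every library except knockout library 1, where Gli2 equalled it. Wild-type libraries 1, 2 and 3 had 6, 5 and 4 peaks there and knockout libraries 1 to 4 had 3, 4, 4 and 14. The first 3 knockout libraries lay at or below the wild-type libraries and the fourth far above them, so the groups overlapped. Means were 5 ± 1 (SD, n = 3) in wild-type and 6.25 ± 5.19 (SD, n = 4) in knockout, which differ by 1.25 peaks (exact permutation p = 1, adjusted p = 1). Without knockout library 4 the difference was −1.33 (exact permutation p = 0.3, where 3 against 3 libraries allow no p under 0.1).

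Scaled to 10000 listed peaks, Gli3 stood at 8.06, 4.39 and 6.19 in the wild-type lists and at 3.05, 5.63, 11.9 and 8.06 in the knockout lists. The order of libraries changed with this scale: knockout library 3, the shortest list, was the highest, and knockout library 4 matched wild-type library 1. The difference was 0.944 per 10000 (exact permutation p = 0.743). Peaks covered 755 to 1001 bp of the locus in wild-type libraries, 524 to 630 bp in knockout libraries 1 to 3 and 2772 bp in knockout library 4.

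Among all protein-coding loci 73 held more peaks than Gli3 over the 7 lists. Genes at least as long as Gli3 numbered 671, Gli3 included, and 76 of them held at least as many peaks. In peaks per 100 kb of locus and library Gli3 had 1.56, against a median of 0.371 over tested loci, and 97.4% of those were lower. Gli2 stood at 0.669 and Boc at 1.15 on this scale. The genes whose 7 peak numbers were closest to those of Gli3, by Euclidean distance over the 7 libraries, were Frmd4a (distance 4), Nrg1 (4.69) and Gm13287 (4.80, shared with Gm13288).

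The 40 peaks at Gli3 fell into 15 regions, a region being overlapping peaks merged across libraries, and 9 regions were recurrent, called in at least 2 libraries. Of the recurrent regions 8 lay inside the gene and 1 beyond its end, and neighbouring ones were 3.8 to 75.2 kb apart. Wild-type libraries called 5, 5 and 4 of the 9, and knockout libraries 1 to 3 called 3, 4 and 4. Knockout library 4, which had the longest list, called all 9. Of the 6 regions called once, 5 were in knockout library 4. The transcript models needed to tell exon from intron were not used here, so regions are placed by distance from the start.

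**Figure D2:**
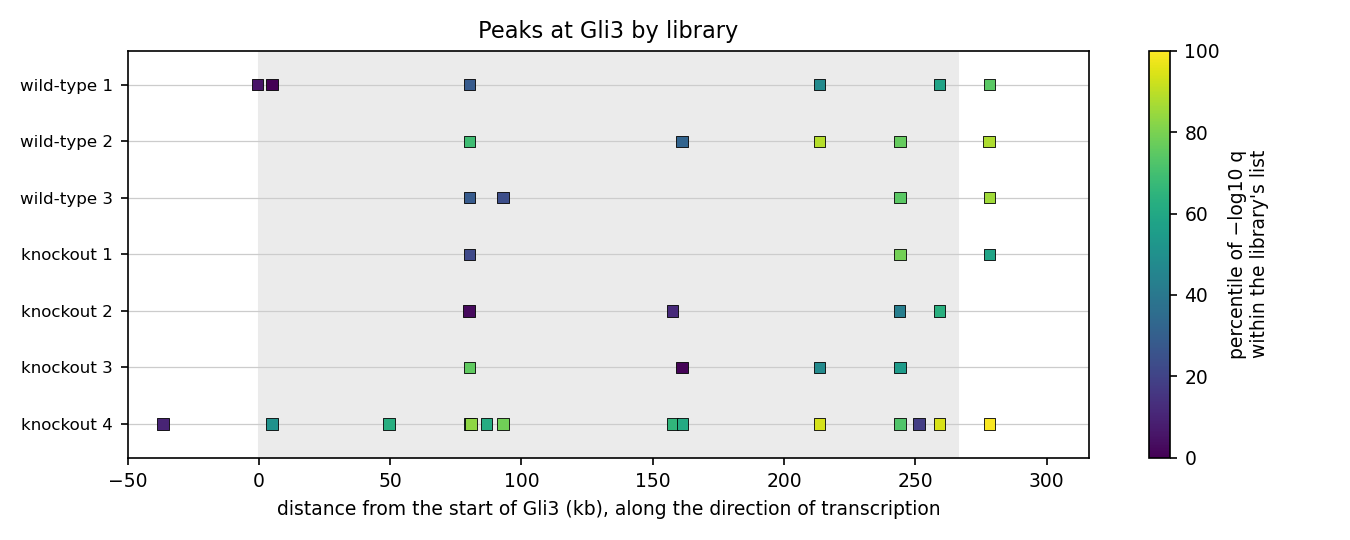
Position of each Gli3 peak in kb from the gene's start (x axis) in the 7 libraries (rows), with the gene span shaded. Squares are peaks, drawn wider than to scale and coloured by the percentile of their −log10 q within their own list; the column at 80.2 kb is filled in all 7 rows, and the square nearest the start, in wild-type library 1, lies 497 bp before it.

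The region 80.2 kb into Gli3 (chr13:15543732-15544128) was the only one of all 46 regions in the 10 loci to be called in all 7 libraries, a pattern held by 5.06% of all regions. Its deposited fold enrichments over background were 4.36, 5.18 and 4.25 in wild-type and 4.35, 4.07, 5.28 and 4.43 in knockout libraries. These ratios are the authors' values for each list and describe peaks within it. The peak ranked at percentiles 28.3, 68.9 and 28.3 of its list by −log10 q in wild-type and at 22.2, 2.52, 75.5 and 51.7 in knockout libraries. It was thus a middling to weak peak in most lists although every library had it. The knockout library 2 peak had no base in common with the peaks of 3 other libraries, wild-type 1 and 2 and knockout 3, so no base was common to all 7.

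Near the end of Gli3, the region 244.1 kb from the start (chr13:15707640-15708098, 91.7% along the gene) was called in 2 of 3 wild-type libraries and in 4 of 4 knockouts (Fisher's exact p = 0.429). Wild-type library 1 was the only list without it, and 41 bp were common to all 6 peaks. Beyond the gene, 11.6 kb past its end, a region (chr13:15741665-15742083) was called in 3 of 3 wild-type libraries and in knockout libraries 1 and 4 only (Fisher's exact p = 0.429). It was the highest-ranked Gli3 peak of wild-type libraries 1 and 3 and knockout library 4, with percentiles of 74.5, 87.8 and 85.7 in wild-type and 58.3 and 99.1 in knockout lists. Its fold enrichment of 8.61 in knockout library 4 was the highest of any peak in the 10 loci. No other protein-coding gene lies within 50 kb of Gli3, so no neighbour's end coincides with these regions.

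The region 213.6 kb into Gli3 (chr13:15677176-15677398) was called in 2 of 3 and 2 of 4 libraries. One at 157.5 kb (chr13:15621173-15621341) was called in 0 of 3 and 2 of 4, by knockout libraries 2 and 4 (Fisher's exact p = 0.429). The 4 remaining recurrent regions, 4.99 to 259.2 kb from the start, were called in 2 or 3 libraries that included both genotypes.

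Gli2 (chromosome 1, 118834061 to 119054405, minus strand), the main GLI activator, had 2, 3 and 1 peaks in wild-type libraries and 3, 2, 1 and 3 in knockout libraries. The groups covered the same range, with means of 2 ± 1 and 2.25 ± 0.957 (SD, n = 3 and 4, exact permutation p = 1). Knockout library 4 was not apart here. Per 10000 listed peaks the values were 2.69, 2.63 and 1.55 against 3.05, 2.81, 2.97 and 1.73 (exact permutation p = 0.457), with knockout library 4 the lowest of its group.

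The region nearest the start of Gli2, 19.6 kb inside the gene (chr1:119033924-119034181), had the widest gap between genotypes of any recurrent region at the 10 loci. It was called in wild-type library 2 and in all 4 knockout libraries (1 of 3 against 4 of 4, Fisher's exact p = 0.143, adjusted p = 1). Its peaks ranked at percentile 37.2 in wild-type library 2 and at 7.94, 39.8, 61.6 and 93.0 in the knockout lists, and 57 bp were common to all 5. Without wild-type library 2 it would be called in each knockout library and in no wild-type one, the pattern of 0.894% of recurrent regions when that library is left out. A second region 142.4 kb inside Gli2 (chr1:118911149-118911374) was called in 2 of 3 and 3 of 4 libraries. Another at 71.0 kb was called in 1 of 3 and 2 of 4.

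Gli1 (chromosome 10, 127329882 to 127341579), whose transcription is a standard readout of hedgehog signalling, had no peak in its span in any library. Its locus held 0 peaks in 6 libraries and 2 in knockout library 4, or 1.15 per 10000 listed peaks. Both lay near ends of other genes, 1 at Ddit3 and Mbd6 and 1 at Mars1, in a stretch with 8 neighbouring genes.

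Among the receptors, Ptch1 (chromosome 13, 63508328 to 63573460, minus strand), receptor and feedback target of the pathway, had 0, 2 and 1 peaks in wild-type and 0, 0, 0 and 3 in knockout libraries. Knockout libraries 1 to 3 had none, while wild-type library 1 had none either, so the groups overlapped (means 1 ± 1 and 0.75 ± 1.5, SD, n = 3 and 4, exact permutation p = 1). Without knockout library 4 the knockout libraries had 0 peaks against a wild-type mean of 1. Recurrent regions lay 50.6 kb (chr13:63514987-63515187, 2 of 3 and 1 of 4 libraries) and 10.9 kb (chr13:63554736-63554932, 1 of 3 and 1 of 4) past the start at 63565735. That start lies inside the span, and the regions were 89.6% and 28.6% along the whole span. Per 10000 listed peaks the Ptch1 means were 1.10 ± 0.959 and 0.432 ± 0.864 (SD, n = 3 and 4, exact permutation p = 0.371). The region at 10.9 kb ranked at percentile 88.4 in wild-type library 2 and 85.0 in knockout library 4, so it was a strong peak in both longest lists and missing from the other 5.

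Smo (chromosome 6, 29735497 to 29761366, plus strand), the signal transducer, had 1 peak in each wild-type library and 1, 0, 0 and 3 in knockout libraries 1 to 4. The wild-type libraries were alike and the knockout libraries ranged on both sides of them, with means of 1 ± 0 and 1 ± 1.41 (SD, n = 3 and 4, exact permutation p = 1). Per 10000 listed peaks the Smo means were 1.26 ± 0.344 and 0.686 ± 0.844 (SD, n = 3 and 4, exact permutation p = 0.343). The wild-type peaks were not at 1 place: wild-type library 3 had the start, shown above in sequence, and wild-type libraries 1 and 2 a region 12.9 kb inside (chr6:29747891-29748911). That region was 1021 bp long because of 1 peak in wild-type library 2, and the peak of wild-type library 1 overlapped neither knockout peak in it.

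Of the co-receptors, Boc (chromosome 16, 44485045 to 44558870) had 1, 3 and 2 peaks in wild-type and 1, 2, 1 and 4 in knockout libraries. Means were 2 ± 1 and 2 ± 1.41 (SD, n = 3 and 4, exact permutation p = 1), and the values overlapped throughout. Scaled to 10000 listed peaks they were 2.36 ± 0.909 and 2.28 ± 0.886 (exact permutation p = 0.914). A region inside Boc (chr16:44530723-44531231) was called in 3 of 3 wild-type libraries and in 3 of 4 knockouts, missing only in knockout library 3, and 79 bp were common to its 6 peaks. It ranked at percentiles 71.3, 87.6 and 50.5 in wild-type and 1.44, 51.6 and 84.3 in knockout libraries 1, 2 and 4. A region 20.6 kb beyond the upper end of Boc (chr16:44579423-44579845) was called in 1 of 3 and 3 of 4 libraries (Fisher's exact p = 0.486). A peak in knockout library 4 only (chr16:44558792-44558896, fold enrichment 7.22) reached across the upper end of the Boc span. The strand of Boc is not given here, so whether that end is its start was not tested.

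Cdon (chromosome 9, 35421528 to 35507652, plus strand), the close relative of Boc, had no peak inside its span in any library. Its locus held 1 peak in every wild-type library and 1, 1, 0 and 6 in knockout libraries (means 1 ± 0 and 2 ± 2.71, SD, n = 3 and 4, exact permutation p = 1). Scaled to 10000 listed peaks the means were 1.26 ± 0.344 and 1.47 ± 1.45 (exact permutation p = 0.83). All lay in the flanks. The region 18.6 kb before the lower end of the span (chr9:35402717-35402968) was called in 2 of 3 wild-type libraries and 2 of 4 knockouts. The one 9.45 kb before that end (chr9:35411696-35412074) was called in 1 of 3 and 2 of 4. Wild-type library 1 and knockout library 2 had the second and not the first, wild-type libraries 2 and 3 and knockout library 1 the first and not the second, and knockout library 4 both.

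Gas1 (chromosome 13, 60174405 to 60177535, minus strand), a membrane-anchored co-receptor encoded in 3.13 kb, had 0 peaks in all 3 wild-type and in 3 knockout libraries and 1 in knockout library 4, at the start shown in sequence, or 0.576 per 10000 listed peaks. Hhip (chromosome 8, 79965850 to 80058060, minus strand), the ligand trap, had 1, 1 and 0 peaks in wild-type and 1, 2, 0 and 1 in knockout libraries. Its means were 0.667 ± 0.577 and 1.0 ± 0.816 (SD, n = 3 and 4, exact permutation p = 0.657), and knockout library 4 was not apart. Scaled to 10000 listed peaks they were 0.740 ± 0.682 and 1.10 ± 1.21 (exact permutation p = 0.743). A region 65.4 kb inside Hhip (chr8:79992279-79992861) was called in 2 of 3 and 3 of 4 libraries, at percentiles 45.6 to 59.7 of every list that had it. The peaks of knockout libraries 2 and 4 in it did not overlap, so no base was common to all its peaks.

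Sufu (chromosome 19, 46396896 to 46488804, plus strand), the inhibitor that holds GLI proteins in the cytoplasm, had no peak inside its span. Its locus held 0, 0 and 2 peaks in wild-type and 1, 0, 0 and 2 in knockout libraries (means 0.667 ± 1.15 and 0.75 ± 0.957, SD, n = 3 and 4, exact permutation p = 1). Scaled to 10000 listed peaks the order turned, with means of 1.03 ± 1.79 and 0.542 ± 0.629 (exact permutation p = 0.886). The recurrent region, 1.60 kb before the start (chr19:46395151-46395295), was called in 0 of 3 and 2 of 4 libraries (Fisher's exact p = 0.429). It lay inside Actr1a and within 1 kb of an end of that gene, and the lists do not tell which gene it serves.

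**Figure D3:**
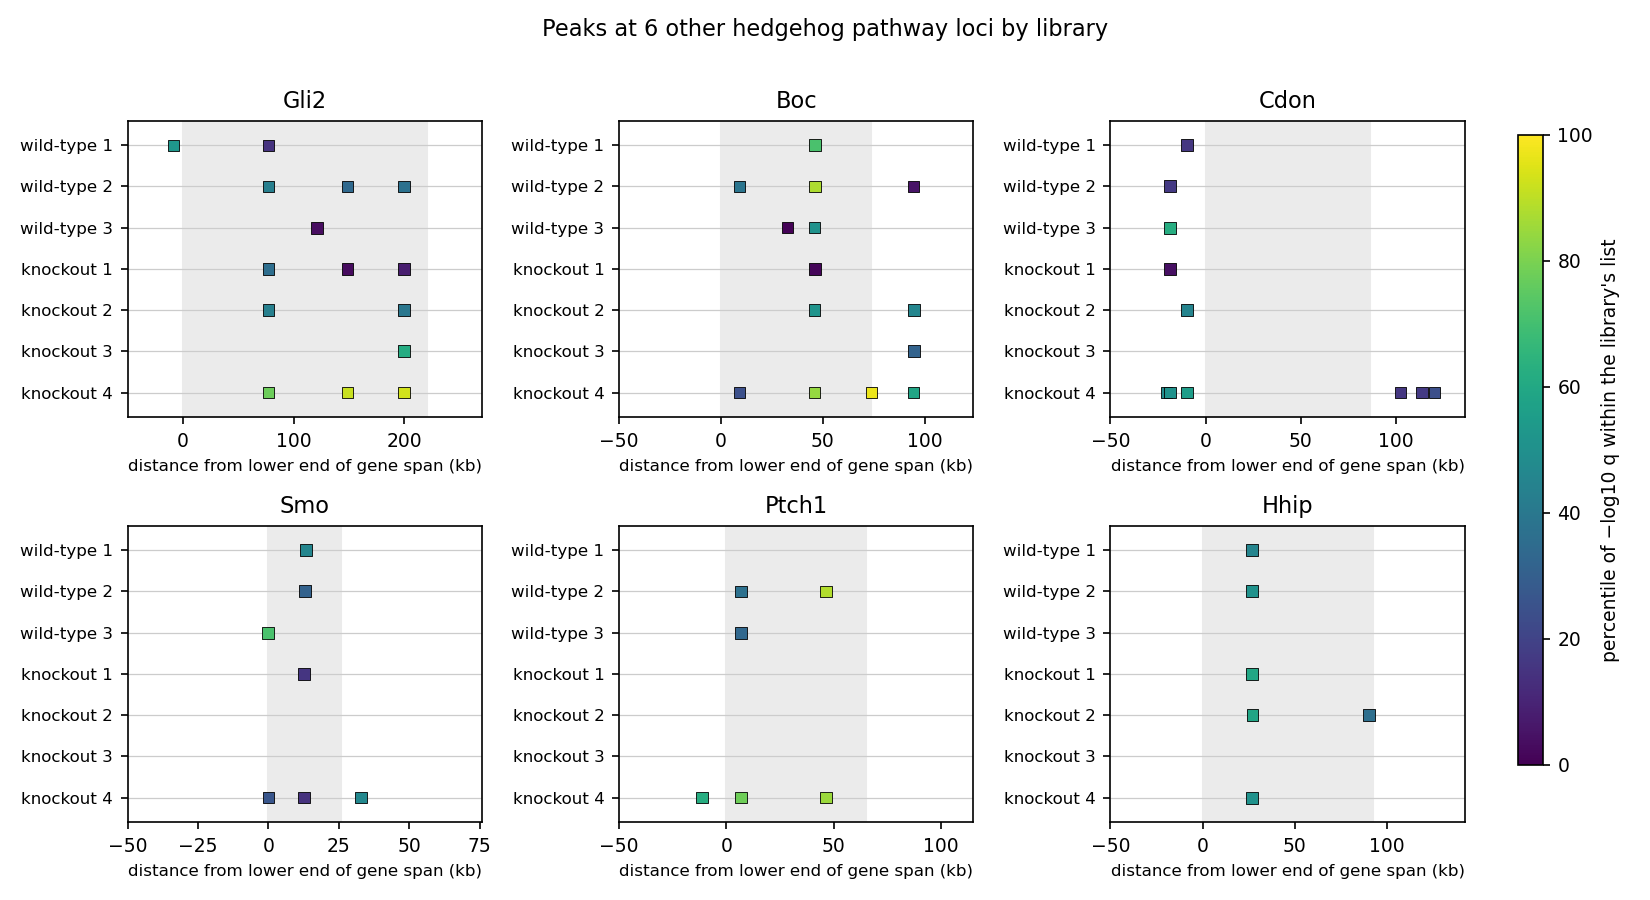
Peaks at 6 further loci in kb from the lower end of the gene span (x axes), 1 row per library, with the span shaded and squares coloured by percentile of −log10 q within the list. Peaks fall inside the span at Gli2, Ptch1 and Hhip in nearly all cases and only outside it at Cdon, and single columns are shared by up to 6 libraries (Boc).

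Taking the 10 loci as a group, 23 of the 46 regions were recurrent, beside 51.6% of all 25623 regions. Of the recurrent ones 18 touched their gene span and 5 lay in a flank; 16 of the 23 others were in knockout library 4 only, which makes 34.8% of the 46 regions beside 25.3% of all regions. None of the 23 recurrent regions was called in all libraries of 1 genotype and none of the other, which happened for 0.257% (wild-type) and 0.212% (knockout) of all recurrent regions. In Fisher's exact test only such a full separation gives an unadjusted p under 0.05, so 0 of the 23 is the same result again. After Benjamini-Hochberg adjustment 0% of all recurrent regions passed, with a smallest adjusted p of 1. With so few libraries that outcome was all but fixed in advance. Recurrent regions with no wild-type call numbered 2 (11.4% of all recurrent regions) and those with no knockout call 0 (2.93%). Calls in at least 5 libraries were seen for 30.4% of the 23 and for 33.9% of all recurrent regions. Knockout library 4, which had the longest list, called all 23. The share of all recurrent regions that it called is not given here, so this count does not set the loci apart.

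**Figure D4:**
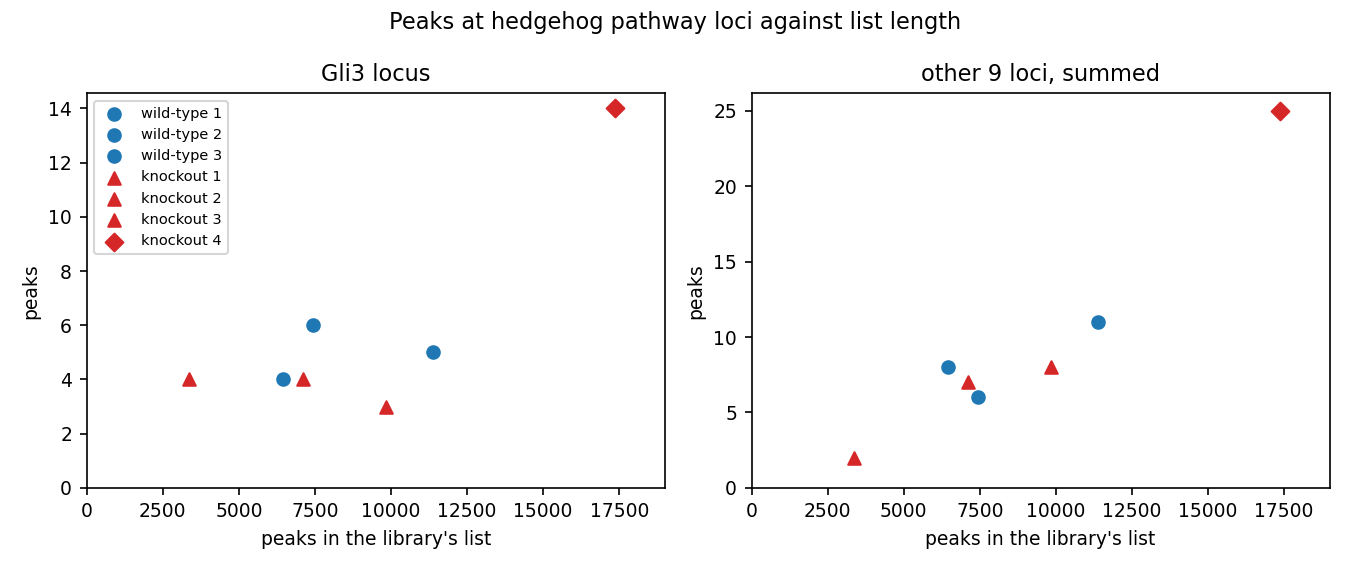
Peaks at the Gli3 locus (left) and summed over the other 9 loci (right) against the number of peaks in each library's list, 1 point per library. The 9-locus sum is lowest at 2 in the shortest list and highest at 25 in the longest. Gli3 is also highest in the longest list, at 14. In the 6 lists of 3366 to 11394 peaks, Gli3 holds 3 to 6 and the 9-locus sum runs from 2 to 11.

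Gli3 kept 4 peaks in the shortest list, knockout library 3, which had 2 peaks over the other 9 loci together, 1 at Gli2 and 1 at Boc. In knockout library 1, with 9827 listed peaks, Gli3 had 3 and the other 9 loci 8. Loci with any peak numbered 6, 7 and 7 of 10 in wild-type libraries and 7, 5, 3 and 10 in knockout libraries, where 17.2% to 60.0% of all protein-coding loci had one.

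Other genes of the pathway, 41 in number, were described in the same way. A peak in the locus was found in some library for 32 of them (78.0%, against 69.2% of all protein-coding loci), and 9 had none: the ligands Shh and Ihh, the ligand transporter Disp1, the cilium genes Kif3a and Evc, the ubiquitin ligase adaptor Spop, and the ventral targets Nkx2-1, Nkx2-2 and Foxa2. Means were higher in knockout for 15 of the 41 (58.6% of tested loci) and in wild-type for 15 (37.8%). The median difference was 0 over the 41, the 9 without a peak included, beside 0.167 over all tested loci. Groups did not overlap at 0 of 41 (0.132% of tested loci with knockout above, 0.211% with wild-type above). An unadjusted exact permutation p under 0.05 was seen at 0 of 41 (0.33%). Without knockout library 4, 4 were higher in knockout (21.9% of loci tested then) and 20 in wild-type (58.2%).

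Only 3 of the 41 had a peak in every library (6.90% of all protein-coding loci did). Dync2h1, a motor of transport in the cilium, had 3, 2 and 2 peaks in wild-type and 1, 2, 1 and 3 in knockout libraries. Arl13b, a small GTPase of the ciliary membrane, had 2, 2 and 3 against 2, 2, 1 and 2. Bcl2, a survival gene and GLI target, had 1, 2 and 2 against 2, 1, 2 and 6, the last in knockout library 4. In all 3 the groups overlapped.

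The largest differences in mean among the 41 were small and did not pass the test. Gpr161, a ciliary receptor that restrains the pathway, had 0, 1 and 0 peaks in wild-type and 1, 2, 0 and 3 in knockout libraries (exact permutation p = 0.371). Bcl2 differed by 1.08 (exact permutation p = 0.857). Scube2, which helps release the ligand, had 0 peaks in each wild-type library and 1, 0, 1 and 2 in knockout libraries (exact permutation p = 0.143). Btrc, a ubiquitin ligase subunit that acts on GLI proteins, had 1, 0 and 1 peaks in wild-type libraries and 0 in each knockout library (exact permutation p = 0.143). Arl13b differed by −0.583 (exact permutation p = 0.571), and Dync2h1 tied with it (exact permutation p = 0.629).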

How the data were processed

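For each library the authors deposited a separate list of broad peaks with a fold enrichment (a ratio over background) and a −log10 q for each peak. Build GRCm38, MACS2, Bowtie2 2.3.5.1, deepTools 3.3.0, SAMtools 1.9, FastQC 0.11.8 and CASAVA 1.9 are named in the submitters' processing notes. Settings and any transposase shift are not given in the sources used. Depth is unknown, so no counting interval was set. The smallest deposited −log10 q was 1.30 to 1.32 per list.

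Peaks overlapping a gene span (RefSeq table of GRCm38.p6) or 50 kb on either side were counted. Peaks sharing at least 1 bp were merged into regions. Loci with a peak in any library were tested by a two-sided exact permutation test: p is the share of the 35 splits of 7 libraries into 3 and 4 with an absolute difference in means at least as large. Recurrent regions had Fisher's exact test. Both were Benjamini-Hochberg adjusted over all tested. Coordinates count from 1. Python 3.11.15, NumPy 2.4.6, pandas 2.3.3, SciPy 1.17.1 and matplotlib 3.10.9 were used. The exact permutation test was also run on simulated data, with the outcome not given here. On raw peak numbers it has low power for loci higher in knockout, since the list of knockout library 4 is far longer than the others.

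Members and lists were chosen with earlier results of these data known. Named were all members, other pathway genes with a peak in every library or among the 5 largest differences, the 3 genes most like Gli3, and member regions called in at least 4 libraries or differing by at least 0.5 in share; further ones were chosen after their values were seen. Gm13288 and Dync2h1 are ties. Alternatives were other flanks, −log10 q minimums, equal lists, scaling to list length, midpoints, recurrent regions, merging within 500 bp, coverage of 50%, each library left out and a replicate block.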

Additional observations from a re-analysis of the deposited data

Results flagged for a closer look

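At 5 of the 10 loci the peak number of knockout library 4 stood apart from the other 3 knockout libraries by Dixon's criterion, the gap to the nearest other library as a share of the group's range. It had 14 peaks at Gli3 (the others 3, 4 and 4), 6 at Cdon (1, 1 and 0), 3 at Ptch1, 2 at Gli1 and 1 at Gas1, where the others had 0 at the last 3. Chance flags about 1 in 20 groups, but a lone value among zeros always meets the criterion, and knockout library 4 met it in the same way at 37.9% of the 15153 tested loci. The list of knockout library 4 held 17362 peaks, the other knockout lists 3366 to 9827; the part of list length in these values was not tested. Per 10000 listed peaks it remained the highest knockout library at 4 of these loci. At Ptch1 (1.73), Gli1 (1.15) and Gas1 (0.576) the others had 0, so scaling could not change the order. At Cdon knockout library 4 had 3.46 and the others 0 to 1.41. At Gli3 it stood at 8.06 and knockout library 3 at 11.9.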

How the results depend on the processing

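No alternative gave a locus past the adjusted threshold, which at best could be passed only if most tested loci reached the smallest possible p. Among 170 member values under 17 settings none had an exact p under 0.05. The smallest was 0.3, from the exact permutation test. The replicate block used an exact sign-flip test of the differences between same-numbered libraries instead. With 1 library left out, or with that block, too few arrangements remain for any p under 0.05. The lack of one in those settings was fixed in advance and says nothing. The Gli3 difference was 1.25 peaks and ran from −1.33 to 2.33 with single libraries left out, turning negative only without knockout library 4. With the same libraries left out in turn, Sufu ran from −0.333 to 0.75, Ptch1 from −1 to 0.25, Gli2 from −0.25 to 0.75 and Cdon from −0.333 to 1.67. Directions turned at Ptch1 with −log10 q of at least 3 (0.167), at Cdon with equal lists (−0.333) and at Sufu per 10000 listed peaks (−0.490).

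The replicate numbers are shared between genotypes, but nothing says that they mark a litter or day, and deviations of same-numbered libraries correlated at −0.026, 0.061 and 0.060. With a replicate block over numbers 1 to 3, which leaves out knockout library 4, the differences were −1.33 for Gli3 and −0.333 for Sufu and Cdon, and 166 regions separated.

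Over all regions 62 separated the genotypes, 24 with −log10 q of at least 3, 3 with at least 5, 41 with equal lists and 117 to 246 with 1 library left out. At the 10 loci the number was 0, or 0 to 1 with 1 library left out, the 1 being the Gli2 region without wild-type library 2. The causes of these shifts were not tested. Peak lists without read counts cannot tell a closed region from one under the calling threshold.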
